A study of Mus musculus with 63 samples.

Results

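MHC class II antigen presentation was followed in tumours of the mouse small intestine through 7 genes, *Cd74*, *H2-Aa*, *H2-Ab1*, *H2-Eb1*, *H2-DMa*, *H2-DMb1* and *Ciita*, which were taken by symbol from the 24766 genes of the expression table. All 7 were found, and all 7 passed the filter on low values, a mean of at least 10 normalised counts. The data came from bulk RNA sequencing of 63 libraries from 43 tumours of 2 mice, 1 female and 1 male. From 20 tumours, 10 per mouse, a major (larger) and a minor (smaller) clone each gave a library of its own, and 23 tumours, 10 of the female and 13 of the male mouse, were sequenced undivided (the series' text counts 20 monoclonal tumours without naming them, and all 23 were used here). By their labels, the undivided tumours were numbered 1 to 10 in each mouse, with 15, 17 and 18 besides in the male mouse. Each library was labelled with a segment of the small intestine, SI10, SI20 or SI30. No library came from normal intestine.

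Both mice had the genotype Apchet, with 1 *Apc* allele removed throughout the intestinal epithelium by Villin-CreERT2 after 4 mg tamoxifen, and carried Confetti, a fluorescent reporter that marks clones by colour. The mutagen ENU (200 mg per kg) was given 10 days after tamoxifen, so every group shared the genotype and both agents. Cre acted in epithelial cells, and the dissected pieces were whole tissue that held immune and stromal cells as well. Mouse and sex cannot be told apart in this design. Since all tumours came from 2 mice, p-values measure the spread between tumours, not between animals. Which piece of a divided tumour was the major clone is not in the sample labels and was taken from the study's own assignment.

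Class II molecules present peptides from the endosomal pathway to CD4+ T cells. They are made at high levels by dendritic cells, B cells and many macrophages, and interferon gamma can switch them on in other cells, the epithelium of the small intestine among them. Their transcription depends on the co-activator encoded by *Ciita*, which is recruited by factors bound to the X and Y boxes of class II promoters. In bulk samples such as these, fewer cells of a type and less RNA per cell cannot be told apart.

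Of the 7 genes, 5 lie together on chromosome 17 (GRCm39): *H2-DMa* at 34338515 to 34358958 on the plus strand, *H2-DMb1* at 34372046 to 34379204 (plus), *H2-Ab1* at 34476663 to 34488393 (plus), *H2-Aa* at 34493404 to 34506798 (minus) and *H2-Eb1* at 34504236 to 34535648 (plus). *Cd74* lies on chromosome 18 at 60936899 to 60945731 (plus) and *Ciita* on chromosome 16 at 10297923 to 10347694 (plus). *H2-Aa* overlaps *H2-Eb1*, *H2-DMa* overlaps *Brd2* and *Ciita* overlaps *Dexi*, each on the other strand, and the library kit keeps the strand. Annotated genes on the same strand, which it does not separate, overlap *Cd74* (*Mir5107*), *H2-Ab1* (*Gm64943*), *H2-Eb1* (*Gm65394*, *Gm65395* and *Gm56896*), *H2-DMa* (*Gm50336* and *Gm65631*) and *H2-DMb1* (*Gm64546*). Reads of *H2-DMb1* could be shared with its near-identical neighbour *H2-DMb2*, whose median level per kilobase of transcript was 14.2, against 158 for *H2-DMb1*.

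*H2-Aa* and *H2-Ab1* encode the alpha and beta chains of I-A, and *H2-Eb1* the beta chain of I-E. The alpha chain of I-E is not among the genes followed here, and whether an I-E molecule was formed was not measured. *Cd74* encodes the invariant chain, which occupies the groove of new class II molecules. *H2-DMa* and *H2-DMb1* encode chains of H2-DM, which exchanges the remnant of the invariant chain for peptide.

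The promoters of 3 members are shown with their matches to the core letters of the X and Y boxes, which differed between the 3. The sequences are from RefSeq (GRCm38.p6), run from 250 bases before to 50 bases after the start of transcription, and are written 5′ to 3′ on the strand of the gene. Capitals mark matches, on either strand, to CCAAT (the core of the Y box, ATTGG in reverse), AGCAAC (the core of the X1 box, GTTGCT in reverse) and TGACG (a part of the X2 box, CGTCA in reverse). *H2-Aa* is chr17:34287774-34288073 on the minus strand, *H2-Eb1* is chr17:34305617-34305916 on the plus strand and *H2-DMb1* is chr17:34152941-34153240 on the plus strand.
H2-Aa: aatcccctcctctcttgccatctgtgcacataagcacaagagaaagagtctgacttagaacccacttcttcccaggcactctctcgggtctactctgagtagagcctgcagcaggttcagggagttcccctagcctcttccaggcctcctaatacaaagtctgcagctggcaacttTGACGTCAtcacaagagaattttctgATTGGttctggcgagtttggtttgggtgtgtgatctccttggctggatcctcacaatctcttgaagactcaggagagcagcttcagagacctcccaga
H2-Eb1: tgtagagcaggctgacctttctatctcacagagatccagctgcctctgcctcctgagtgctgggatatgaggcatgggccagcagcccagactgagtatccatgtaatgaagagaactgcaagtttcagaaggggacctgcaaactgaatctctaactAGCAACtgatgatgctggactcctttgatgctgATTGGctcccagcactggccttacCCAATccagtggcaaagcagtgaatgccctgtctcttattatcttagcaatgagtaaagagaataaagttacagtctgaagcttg
H2-DMb1: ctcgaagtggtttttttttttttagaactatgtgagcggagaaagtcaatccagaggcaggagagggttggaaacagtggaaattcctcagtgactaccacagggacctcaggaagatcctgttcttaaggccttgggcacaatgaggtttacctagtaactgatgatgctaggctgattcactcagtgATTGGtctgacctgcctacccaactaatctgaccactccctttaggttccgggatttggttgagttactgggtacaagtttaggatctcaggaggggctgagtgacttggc
In *H2-Aa*, ATTGG began 48 bases before the start site, and TGACG (74 bases before) and CGTCA (71 bases before) overlapped within TGACGTCA. In *H2-Eb1*, AGCAAC began 92 bases before the start site, ATTGG 59 bases and CCAAT 35 bases before it. *H2-DMb1* held ATTGG 61 bases before the start site and no match to the other motifs, and *H2-Aa* held no AGCAAC. Of 32851 promoters of the same length, 37.4% held CCAAT on either strand, 14.8% held AGCAAC, 20.8% held TGACG and 1.21% held all of these motifs. *H2-DMa* had 2 promoter entries, with no match in one and ATTGG 198 bases before the start site in the other. *H2-Ab1*, *Ciita* and *Cd74* were not searched. A match is a description of the letters and not a binding site.

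All 7 genes were measured in every library, and their levels differed widely between tumours. *Cd74* had the highest level, with 1132 normalised counts in the lowest library, a median of 4418 and 16300 in the highest. *H2-Ab1* ranged from 581.8 to 7340 with a median of 1736, *H2-Aa* from 413.4 to 5632 with a median of 1456, and *H2-Eb1* from 287.2 to 3364 with a median of 1058. The peptide exchange genes were lower. *H2-DMb1* ranged from 56.77 to 1268 (median 222.3) and *H2-DMa* from 60.97 to 685.3 (median 192.7). *Ciita* was the lowest, from 16.56 to 186.9 with a median of 58.04 normalised counts. The highest library exceeded the lowest by 11.2-fold (*H2-DMa*) to 22.3-fold (*H2-DMb1*) among the 7 genes. For comparison, *Epcam*, an adhesion molecule of epithelial cells, varied 2.40-fold, and *Csf1r*, the receptor of macrophage growth factors, 23.5-fold.

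The same tumours held the extremes of most of the 7 genes. The undivided male tumour 4 was the lowest of all 63 libraries for every member except *Ciita*, which was lowest in the undivided male tumour 8. The undivided male tumour 17 was the highest for 5 members, while *Cd74* was highest in the undivided female tumour 5 and *Ciita* in the undivided male tumour 18. Divided by the length of the canonical transcript, the median levels were 3090 per kilobase for *Cd74*, 1430 for *H2-Ab1*, 1290 for *H2-Aa*, 624 for *H2-Eb1*, 167 for *H2-DMa*, 158 for *H2-DMb1* and 7.76 for *Ciita*. In this order, *Cd74* lay above *H2-Ab1*, *H2-Aa* above *H2-Eb1*, *H2-Eb1* above *H2-DMa* and *H2-DMb1* above *Ciita* in 63 of 63 libraries. *H2-Ab1* exceeded *H2-Aa* in 56 of 63 and *H2-DMa* exceeded *H2-DMb1* in 39 of 63, so these neighbours were not separated in every tumour. With the length of all annotated exons in place of the canonical transcript, *H2-Eb1* (408 per kilobase) came above *H2-Aa* (339) and *H2-DMb1* (132) above *H2-DMa* (44.5).

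The 7 genes varied together. After subtraction of the mean of each class and mouse, the 21 pairs of members correlated at a median Pearson r of 0.922 across the 63 libraries, from 0.715 (*H2-DMb1* and *Ciita*) to 0.978 (*H2-Aa* and *H2-Ab1*). In the 23 undivided tumours the median was 0.954 (0.806 to 0.986). In the differences between the 2 clones of a tumour it was 0.816 (0.552 to 0.964, 20 tumours). These correlations are a description, since the genes of a library share its composition and scaling. The ratio of the normalised counts of *H2-Aa* to *H2-Ab1*, the chains of 1 molecule, stayed between 0.532 and 1.17 (median 0.829). On the log2 scale the SD of this ratio was 0.203 over libraries, against 0.863 for *H2-Aa* and 0.804 for *H2-Ab1* alone. The ratio of *Ciita* to *H2-Ab1* was looser, with a log2 SD of 0.533.

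**Figure D1:**
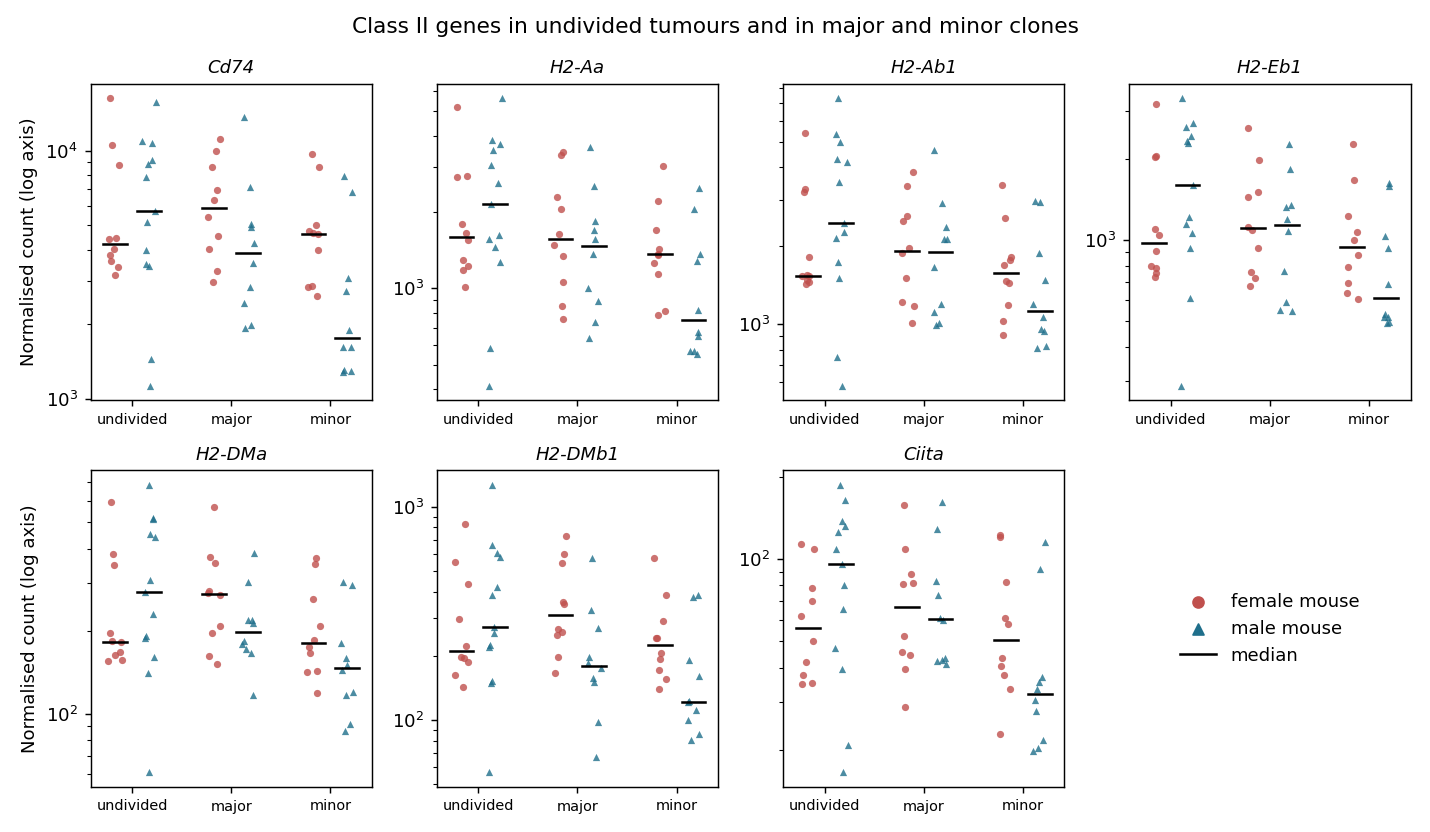
Normalised counts (log axis) of the 7 class II genes in each of 63 libraries, by class (23 undivided tumours, 20 major and 20 minor clones) and mouse; points are libraries and lines are medians of each mouse. The classes overlap for every gene, and the lowest and highest libraries are undivided tumours, such as 1132 and 16300 for *Cd74*.

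Class II transcripts were compared between the clones of the same tumour to ask whether the major and the minor clone differ. The point estimates were higher in major clones for all 7 genes, and none passed the correction over all genes. *Cd74* ranged from 1928 to 13730 normalised counts in major clones (median 4739) and from 1282 to 9671 in minor clones (median 2968). *H2-Ab1* had a median of 1909 in major (997.6 to 4624) and 1456 in minor clones (814.1 to 3422). *Ciita* had a median of 60.36 in major (28.73 to 162.1) and 37.23 in minor clones (19.90 to 122.3). The ranges of the 2 classes overlapped for every member.

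With the tumour as a block, *Cd74* was 0.56 higher on the log2(normalised count + 1) scale in major clones (standard error 0.15, 95% interval 0.24 to 0.88, limma adjusted p = 0.0633). The major clone held more *Cd74* in 15 of 20 tumours. The other differences were 0.55 for *Ciita* (standard error 0.24, adjusted p = 0.169), 0.42 for *H2-DMa* (0.14, adjusted p = 0.0887), 0.41 for *H2-DMb1* (0.17, adjusted p = 0.145), 0.38 for *H2-Aa* (0.15, adjusted p = 0.129), 0.34 for *H2-Eb1* (0.14, adjusted p = 0.152) and 0.33 for *H2-Ab1* (0.14, adjusted p = 0.151), all from limma. The major clone was the higher in 16 of 20 tumours for *H2-Aa*, 15 for *H2-Eb1*, 14 for *H2-DMa*, 13 each for *H2-DMb1* and *Ciita* and 12 for *H2-Ab1*. At an adjusted p under 0.05, 0 of 7 members were called, where 1.14% of the 16428 genes tested were. At an unadjusted p under 0.05, 7 of 7 were higher in major clones, where 12.4% of all genes were.

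Individual tumours went both ways. All 7 genes were higher in the major clone in 10 tumours, all were lower in 1 (female tumour 23), and 9 tumours were mixed. The difference in *Cd74* ran from -0.68 in male tumour 23 to 1.94 in female tumour 22. Female tumour 22 had the largest difference of the 20 tumours for each of the 7 genes, up to 2.73 for *Ciita*, and it is the only divided tumour whose clones were labelled with different segments (major SI20, minor SI10). Without it the difference in *Cd74* was 0.48, and the 7 differences lay between 0.26 and 0.48 (limma adjusted p from 0.106 to 0.277). Without female tumour 23, 28 or 29, *Cd74* was the only member to pass the threshold (0.60 to 0.62, limma adjusted p 0.0456 to 0.0491). Of all genes 337, 228 and 475 were called in these fits, against 188 with all 20 tumours.

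*Csf1r* was higher in the major clone in 15 of 20 tumours as well, by 0.44 (limma adjusted p = 0.158), and *Epcam* in 14 of 20, by 0.08 (adjusted p = 0.376). All 18 myeloid markers had a positive difference, with a median of 0.26 and 0 of 18 called. The summed level of the myeloid markers ranged from 3502 to 11510 normalised counts in major and from 2656 to 14080 in minor clones. With *Csf1r* as a covariate the median difference of the members was 0.34 in place of 0.41, and 2 of 7 had an unadjusted p under 0.05 in place of 7. Over all 16428 genes the covariate lowered that count too, to 2136 from 3680, and 1 gene was called in place of 188. The difference was 0.36 for *Cd74* and 0.17 for *H2-Aa* in that fit. The ribosomal RNA *Rn18s* took a median of 1.24% of the library sum in major and 6.19% in minor clones. With *Rn18s* as a covariate the median difference of the members was 0.44, and 4 of 7 had an unadjusted p under 0.05. Over all genes that count was 1494, with 1 gene called. The 7 differences were between 0.21 and 0.49 in the female mouse alone and between 0.33 and 0.86 in the male mouse alone, with 0 of 7 called in each. Of all genes, 0 of 16402 were called in the female and 0.201% of 16382 in the male mouse alone, so these counts say nothing particular to the members. Tested between the mice, the clone difference was called for 0 of 16428 genes in limma (1257 at an unadjusted p under 0.05), and tested between SI10 and SI20 tumours it was called for 0 of 16436 (667 at an unadjusted p under 0.05). None of the 7 members had an unadjusted p under 0.05 in either test.

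**Figure D2:**
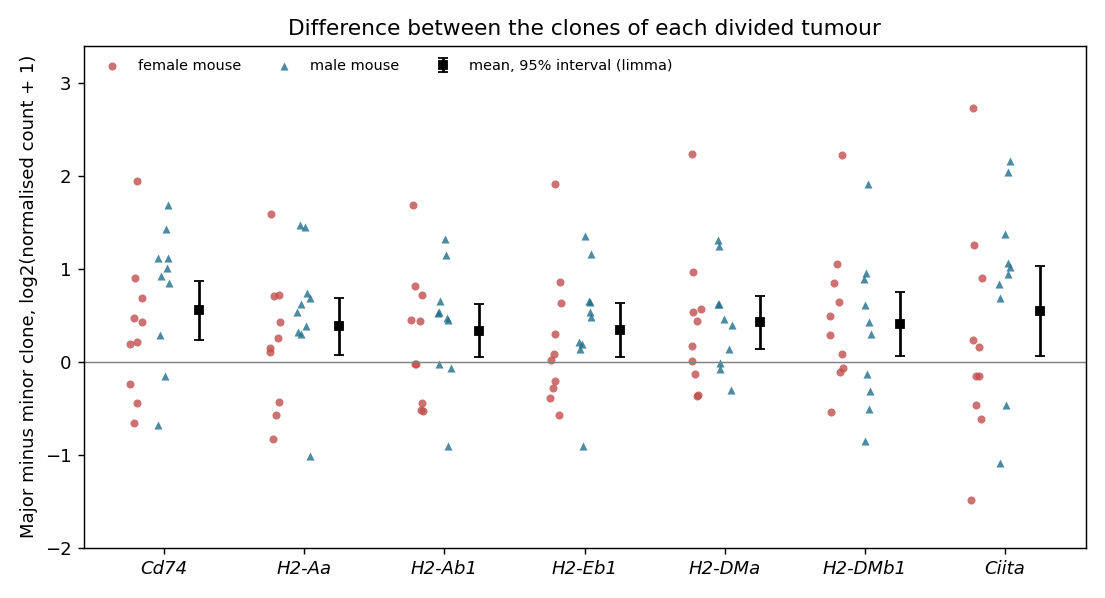
Major minus minor clone of each of 20 divided tumours in log2(normalised count + 1), by gene and mouse, with the limma mean and its 95% interval as squares and bars. The means lie between 0.33 and 0.56, while single tumours run from -1.48 to 2.73, both for *Ciita*.

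The clones of 1 tumour were then compared with each other in level. Across the 20 tumours, and centred on each mouse, the major and the minor clone correlated at r = 0.579 for *Cd74* (Spearman rho 0.417, permutation p = 0.0131 for r and 0.0852 for rho). For *H2-Aa* r was 0.556 (rho 0.460, permutation p = 0.0152 and 0.0496), for *H2-Ab1* 0.500 (rho 0.411, permutation p = 0.0313 and 0.0812) and for *H2-Eb1* 0.484 (rho 0.474, permutation p = 0.0377 and 0.0409). *H2-DMb1* (r = 0.443, rho 0.284, permutation p = 0.0652 and 0.235) and *H2-DMa* (r = 0.288, rho 0.208, permutation p = 0.226 and 0.386) had lower values. *Ciita* had r = -0.000691 (rho 0.0195, permutation p = 0.998 and 0.939). The same r had a median of 0.253 over 16427 genes, with quartiles of 0.0604 and 0.446, and 11.3% of genes had an r as high as that of *Cd74*. Without the 2 tumours farthest from the median, r was between 0.490 and 0.577 for the 6 genes other than *Ciita* and 0.228 for *Ciita*. Within mice, r ranged from -0.163 to 0.462 in the female and from 0.160 to 0.696 in the male mouse. The levels were centred on mouse and not on segment. Except in the female tumour with different segment labels, the clones of a tumour shared a segment. All members had lower estimates in SI20 than in SI10 divided tumours, as given below. A likeness of clones through their tumour and through its segment thus cannot be told apart in r. The relation within segments was not tested. The p-values of this paragraph are not adjusted for 9 relations, 7 members with *Csf1r* and *Epcam*.

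Undivided tumours were then set against each class of clone. Both comparisons use the same 23 undivided tumours, so their values are given side by side and are not independent. *Cd74* had a median of 4460 normalised counts in undivided tumours (1132 to 16300), against 2968 in minor and 4739 in major clones. *H2-Aa* had a median of 1647 in undivided tumours (413.4 to 5632), 1275 in minor (553.5 to 3037) and 1525 in major clones (635.7 to 3617). *H2-DMb1* had a median of 254.9 in undivided tumours (56.77 to 1268), 181.8 in minor (80.46 to 574.8) and 254.2 in major clones (67.27 to 730.5). Undivided tumours spread more widely than either class of clone and included both ends of the range for each of these 3 genes.

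Against minor clones, the difference with mouse as a covariate was 0.74 for *Cd74* (standard error 0.28, limma adjusted p = 0.123) and 0.72 for *H2-Aa* (0.25, 95% interval 0.21 to 1.23, adjusted p = 0.0934). It was 0.65 for *H2-DMb1*, 0.64 for *H2-Ab1*, 0.61 for *H2-Eb1*, 0.60 for *Ciita* and 0.53 for *H2-DMa* (limma adjusted p from 0.120 to 0.202). Of the 7 members 0 were called, where 3.70% of 16491 genes were called and 2.27% were called higher. At an unadjusted p under 0.05, 7 of 7 were higher, where 10.2% of all genes were. Against major clones the differences were smaller, from 0.03 for *Ciita* (95% interval -0.47 to 0.54) and 0.17 for *Cd74* (-0.37 to 0.71) to 0.33 for *H2-Aa* (-0.19 to 0.84). None of the 7 was called against major clones (limma adjusted p from 0.591 to 0.966), where 0.0121% of 16510 genes were. At an unadjusted p under 0.05 were 0 of 7 members and 12% of all genes. The intervals against major clones reach up to 0.84 for *H2-Aa*. The share of *Rn18s*, a ribosomal RNA, had a median of 3.11% in undivided tumours, 1.24% in major and 6.19% in minor clones, and with *Rn18s* as a covariate the median difference of the members from major clones was 0.07 in place of 0.24, and that from minor clones 0.68 in place of 0.64.

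The estimates against minor clones differed between the mice, by less than the test could call. They lay between 0.82 and 1.18 in the male mouse alone and between 0.09 and 0.36 in the female mouse alone, with 0 of 7 members called in each. Of all genes, 4.59% of 16478 were called in the male mouse alone and 0 of 16372 in the female mouse alone. The count in the female mouse thus says nothing particular to the members. The test of the difference between the mice (male minus female, 0.58 to 0.97 for the members) called 0 of 16491 genes, with 2098 at an unadjusted p under 0.05 and no member among them (limma adjusted p for the members from 0.449 to 0.644). Without the undivided male tumour 4, *H2-Aa* passed the threshold (0.81, limma adjusted p = 0.0403), and with *Epcam* as a covariate *Cd74*, *H2-Aa* and *H2-Ab1* did. Of all genes 768 were called without that tumour and 706 with that covariate, against 610 without either change. With *Csf1r* as a covariate the median difference of the members was 0.37 in place of 0.64, and 0 of 7 had an unadjusted p under 0.05. Over all genes that count was 3399, against 3226 without the covariate.

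Other genes of the pathway did pass the test between undivided tumours and minor clones. *Ctss*, a protease that cleaves the invariant chain, was 0.71 higher in undivided tumours (limma adjusted p = 0.0139), and *Ctsl*, another endosomal protease, was 0.78 lower, at a log2 change of -0.78 (adjusted p = 0.0107). These were the 2 called of 12 other class II pathway genes tested. Of 9 genes of the interferon gamma axis 2 were called, both higher: *Irf1*, a transcription factor induced by interferon gamma (0.51, adjusted p = 0.0158), and *Il18*, a cytokine made by the epithelium (0.60, adjusted p = 0.0300). Of 21 interferon gamma response genes 4 were called, all higher: *B2m*, the light chain of class I (0.77, adjusted p = 0.0152), *Psmb8* and *Psmb10*, subunits of the immunoproteasome (0.76 and 0.46, adjusted p = 0.0206 and 0.0239), and *Tap2*, a peptide transporter (0.59, adjusted p = 0.0407). All values are from limma.

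None of the 10 class II promoter factors was called in this comparison. *Rfx5*, a subunit of the factor that binds the X box, changed by -0.08 (limma adjusted p = 0.788), and 0 of the 10 had an unadjusted p under 0.05. Of 12 T and NK cell markers 4 were called, all higher in undivided tumours: *Cd3e* (0.94), *Gzma* (0.92), *Gzmb* (0.85) and *Cd3g* (0.83), with adjusted p from 0.0366 to 0.0490 in limma. *Cldn7* of the epithelial markers (0.28) was called higher and *Cdh5* of the endothelial markers (-1.12) lower. Of the 18 myeloid markers 0 were called, 7 at an unadjusted p under 0.05, and *Csf1r* differed by 0.52 (adjusted p = 0.274). The summed T and NK cell markers ranged from 883.5 to 7814 normalised counts in undivided tumours, from 652.9 to 3530 in major and from 470.7 to 3050 in minor clones. Their part in the class II levels was not tested. Between major and minor clones, and between undivided tumours and major clones, none of the listed genes tested outside the members was called in limma.

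Tumours of SI20 and SI10 were compared next. All 7 members had lower estimates in SI20, in divided and in undivided tumours, and *H2-DMb1* passed the test in divided tumours. The clones of each divided tumour with a single segment label were averaged on the log2 scale, which gave 7 SI10 tumours (3 female, 4 male) and 10 SI20 tumours (4 female, 6 male). *H2-DMb1* had 371.7, 418.8 and 560.7 normalised counts in the SI10 tumours of the female mouse and 166.6, 201.2, 214.5 and 227.1 in its SI20 tumours. In the male mouse it had 167.7, 183.2, 323.2 and 465.0 in SI10 tumours and a median of 121.2 in 6 SI20 tumours (90.59 to 179.1). The segments did not overlap in the female mouse and overlapped in the male mouse, where SI20 tumour 25 (179.1) lay above SI10 tumour 19 (167.7).

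The difference, SI20 minus SI10 with mouse as a covariate, was -1.10 for *H2-DMb1* (standard error 0.19, 95% interval -1.50 to -0.70, limma adjusted p = 0.0192), and *H2-DMb1* was the only member called of 7. Of 16436 genes 0.0973% were called lower in SI20. The call was lost without female tumour 19 (adjusted p = 0.0540), female tumour 20 (0.0600) or male tumour 22 (0.0563), with differences of -1.11, -1.04 and -1.05. It was joined by *H2-DMa* without male tumour 19 (-0.81, limma adjusted p = 0.0103) and by *H2-Ab1* without male tumour 23 (adjusted p = 0.0464). Of all genes 13, 14, 22, 48 and 38 were called in these fits, in this order, against 46 with all tumours. The other differences were -1.01 for *Cd74* (0.27, adjusted p = 0.143), -0.88 for *H2-Aa* (0.25, adjusted p = 0.176), -0.87 for *H2-Ab1* (0.20, adjusted p = 0.0984), -0.81 for *H2-Eb1* (0.21, adjusted p = 0.143), -0.69 for *H2-DMa* (0.16, adjusted p = 0.0946) and -0.50 for *Ciita* (0.26, adjusted p = 0.378), with standard errors in brackets and p from limma. At an unadjusted p under 0.05, 6 of 7 members were lower in SI20 (all except *Ciita*), where 5.90% of all genes were.

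In divided tumours of the female mouse every SI10 tumour lay above every SI20 tumour for 7 of 7 members, which held for 2.52% of 16489 genes. For *Cd74* the 3 SI10 tumours had 6296, 7361 and 10410 normalised counts and the 4 SI20 tumours 3057, 3579, 3713 and 4639. For *Ciita* they had 55.06, 103.8 and 114.6 against 40.88, 43.10, 48.73 and 52.26. Female tumour 22 was left out since its clones had different segment labels, and there the SI20 clone was the higher for 7 of 7 members. Its SI20 (major) clone had 10012 normalised counts of *Cd74* and 730.5 of *H2-DMb1*, and its SI10 (minor) clone 2601 and 155.1. In that tumour segment and clone cannot be told apart. In the male mouse the segments overlapped for 7 of 7 members. Only 0.904% of 16489 genes had every SI10 above every SI20 tumour in that mouse, so the overlap says nothing particular to the members. There *Cd74* was 2358 and 2437 in SI10 tumours 19 and 23 and 7531 and 9685 in SI10 tumours 22 and 20, against a median of 2149 in the 6 SI20 tumours (1767 to 3672). SI10 tumours 19 and 23 also had the lowest *Csf1r* of the 4, 152.2 and 224.0. Each mouse alone gave 0 calls among the members, with differences from -0.82 to -1.14 in the female and from -0.21 to -1.07 in the male mouse. Of all genes, 0 of 16429 were called in the female and 0.0366% of 16382 in the male mouse alone.

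*Csf1r* differed between the segments of divided tumours by -0.18 (95% interval -0.91 to 0.55) and *Epcam* by 0.12 (-0.08 to 0.32), neither past the threshold. With *Csf1r* as a covariate, 6 of 7 members passed the threshold, again all except *Ciita*, where 0.815% of all genes did (0.280% without the covariate). None of the listed genes tested outside the members was called between segments in limma. Of 21 interferon gamma response genes 11 had an unadjusted p under 0.05, and their median difference was -0.58, beside a median of -0.87 for the members and 0.01 for all genes tested. Of 18 myeloid markers 9 had an unadjusted p under 0.05, with a median difference of -0.47 over the 18. Of these 9, *Mrc1* had a higher level in SI20 (0.67) and the other 8 a lower one. The part of the interferon gamma response genes in the class II difference was not tested.

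In undivided tumours the direction was the same and no member was called. In the female mouse *Cd74* had 4418, 4460, 8782, 10531 and 16300 normalised counts in SI10 and 3147, 3405, 3587, 3814 and 4035 in SI20, with no overlap. *H2-Aa* and *H2-Ab1* did not overlap either, which made 3 of 7 members, where 0.273% of 16489 genes had every SI10 above every SI20 tumour. In the male mouse *Cd74* ran from 1132 to 15654 in 7 SI10 tumours (median 8823) and from 1448 to 10730 in 6 SI20 tumours (median 4845). All 7 members overlapped there, where 0.358% of 16489 genes had every SI10 above every SI20 tumour, so the overlap says nothing particular to the members. With both mice, the differences were -0.71 for *Cd74* (95% interval -1.48 to 0.07), -0.72 for *H2-Ab1* (-1.43 to -0.01) and -0.75 for *H2-DMb1* (-1.54 to 0.05), down to -0.28 for *Ciita* (-1.05 to 0.50). Of 7 members 0 were called (limma adjusted p from 0.652 to 0.870), where 0.170% of 16511 genes were. At an unadjusted p under 0.05 were 1 of 7 members and 7.62% of all genes.

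Whether the segment difference itself differed was tested in each direction available. Between undivided and divided tumours the limma interaction called 0 genes (267 at an unadjusted p under 0.05, none of them a member). Between the mice, in undivided tumours, it called 0 of 16511 (870 at an unadjusted p under 0.05, none of them a member). With undivided and divided tumours in 1 fit (19 SI10 and 21 SI20 tumours, an analysis chosen after the data were seen), *H2-DMb1* was -0.91 (standard error 0.25, adjusted p = 0.0606) and *Cd74* -0.84 (0.25, adjusted p = 0.0917). In that fit 0 of 7 members were called, where 1.01% of 16494 genes were. At an unadjusted p under 0.05 were 6 of 7 members and 2711 of all genes.

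**Figure D3:**
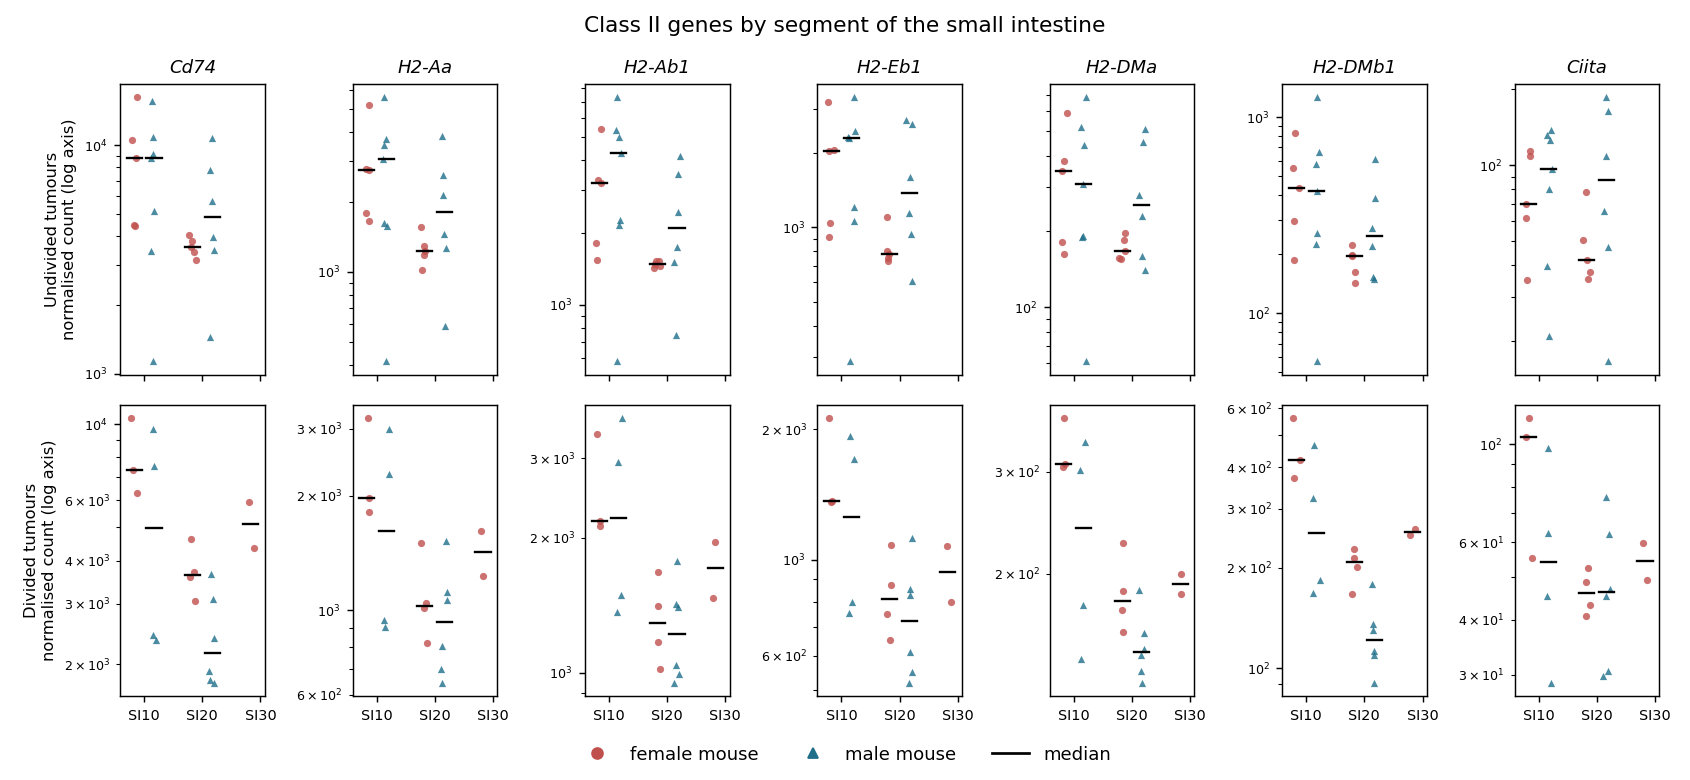
Normalised counts (log axis) of the 7 genes by segment and mouse, for 23 undivided tumours (top) and 19 divided tumours with 1 segment label (bottom, the log2 mean of the 2 clones); lines are medians, and SI30 holds 2 divided tumours of the female mouse. SI10 lies above SI20 with no overlap for all 7 genes in the divided tumours shown of the female mouse, such as 371.7 to 560.7 against 166.6 to 227.1 for *H2-DMb1*. Female tumour 22, not shown, had *H2-DMb1* at 730.5 in its SI20 and 155.1 in its SI10 clone.

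The members were next related to *Epcam*, the epithelial reference, and *Csf1r*, the myeloid reference. These relations are across the 23 undivided tumours and across the clone differences of the 20 divided tumours, 28 relations in all, and the adjusted p beside each slope is that of limma over all genes. All 7 members fell as *Epcam* rose across undivided tumours. The male tumour 17 had the lowest *Epcam* (31000 normalised counts) and the highest *H2-DMb1* (1268), and the male tumour 4 had 64559 *Epcam* and 56.77 *H2-DMb1*. The slope on log2 *Epcam* was -2.03 for *H2-DMb1* (standard error 0.49, limma adjusted p = 0.00628), -1.90 for *Cd74* (0.49, 0.00982) and -1.72 for *Ciita* (0.48, 0.0150). The slopes of the other 4 members lay between -1.64 and -1.75 (limma adjusted p from 0.00846 to 0.0141). Thus 7 of 7 members were called lower with *Epcam*, where 6.09% of 16510 genes were called lower and 10.7% higher.

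Pearson's r with *Epcam*, centred on each mouse, was between -0.657 (*H2-DMb1*) and -0.607 (*H2-Eb1*), and Spearman's rho between -0.616 and -0.540 (permutation p from 0.00145 to 0.00639 for r and from 0.00307 to 0.0100 for rho, 100000 permutations within mice). Without the male tumours 2 and 10, which were farthest from the median of *Epcam*, r was between -0.687 and -0.605. Within mice the values were unlike. In the male mouse r was between -0.809 and -0.747 (13 tumours) and 7 of 7 members were called in the male mouse alone, where 9.70% of all genes were. In the female mouse r was between -0.221 and 0.101 (10 tumours) and 0 of 7 were called, as were 0 of 16354 genes (865 at an unadjusted p under 0.05), so that this count says nothing particular to the members. The limma test of the slope between the mice called 0 of 16510 genes (391 at an unadjusted p under 0.05, no member among them), with male minus female slopes from -1.20 to -2.38. *Epcam* spanned 31000 to 74420 normalised counts in the male and 38070 to 58000 in the female mouse. Without the male tumour 17, 5 of 7 members were called, and *H2-Aa* (limma adjusted p = 0.0533) and *H2-Ab1* (0.0541) were not. Of all genes 2043 were called in that fit, against 2766 with all tumours. The male tumours 15, 17 and 18, those numbered above 10, had the lowest *Epcam* of the male mouse (38065, 31001 and 34620 normalised counts). No fit left them out together.

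All 9 other epithelial markers tested were called higher with *Epcam*, and *H2-DMb2* (-1.61, limma adjusted p = 0.0459) and *Rfx5* (-0.83, 0.0335) were called lower. *Lgmn*, an endosomal protease, was called higher (0.65, 0.0213), as were *Ifngr1* (0.90, 0.00256), a chain of the interferon gamma receptor, *Jak2* (0.83, 0.00619) and *Jak1* (0.62, 0.00336), kinases of that receptor. Of 18 myeloid markers *Cd14* alone was called, and it was higher (1.49, adjusted p = 0.0122). Normalised counts are relative to their library, so a lower level of the members and a larger share of epithelial RNA cannot be told apart here.

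With *Csf1r* all 7 members had positive slopes, and none passed the correction. The slope on log2 *Csf1r* was highest for *Cd74* and *H2-Eb1* (0.55 each, standard errors 0.18 and 0.16, limma adjusted p = 0.101 and 0.0551) and lowest for *H2-DMa* (0.43, 0.16, adjusted p = 0.146). Of 7 members 0 were called, where 3.14% of 16510 genes were called higher, and 7 of 7 were higher at an unadjusted p under 0.05, where 11.4% of genes were. Across undivided tumours r was between 0.439 (*H2-DMb1*) and 0.587 (*H2-Eb1*) and rho between 0.321 and 0.511 (permutation p from 0.00692 to 0.0548 for r and from 0.0158 to 0.156 for rho). Without the male tumours 4 and 8, which were farthest from the median of *Csf1r*, r was between 0.0755 and 0.282, so the value over both mice depended on these 2 male tumours. In the female mouse, which holds neither, r was between 0.784 and 0.856, the median slope was 0.82 and 7 of 7 members had an unadjusted p under 0.05, as did 1868 of 16354 genes, with 0 members called. In the male mouse r was between 0.308 and 0.504, with a median slope of 0.43. There 1 of 7 members had an unadjusted p under 0.05, as did 1708 of 16471 genes. The test of the slope between the mice called 0 genes in limma (358 at an unadjusted p under 0.05, no member among them).

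Some tumours of the male mouse had high class II levels with low *Csf1r*. Its SI10 tumours 5, 15 and 17 had 9184, 10903 and 15654 normalised counts of *Cd74* with 236.3, 348.2 and 269.0 of *Csf1r*, while its SI20 tumour 10 had 3975 of *Cd74* with 1039 of *Csf1r*. SI10 tumours 5, 15 and 17 had the highest summed T and NK cell markers of the male mouse, 7814, 4830 and 5902 normalised counts. Across the undivided tumours of that mouse, r with the mean of the members was 0.772 for these markers, 0.904 for dendritic cell and 0.680 for myeloid markers. The part of any of these cells in the class II levels was not tested. Leaving out the male tumour 17 gave 3 members called with *Csf1r* (*Cd74*, *H2-Aa* and *H2-Eb1*), and leaving out the male tumour 5 gave 2 (*H2-Eb1* and *Ciita*). Of all genes 602 and 635 were called in these fits, against 557 with all tumours. Without the male tumour 7, 10 or 15, *H2-Eb1* was the only member called, beside 505, 450 and 605 called of all genes. Of the 17 other myeloid markers 12 were called higher with *Csf1r*, and of 12 stromal and endothelial markers 11.

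In the differences between the clones of a tumour, the slope on the difference in *Csf1r* ranged from 0.16 for *H2-DMb1* to 0.53 for *H2-Aa*. In these fits 0 of 7 members were called (limma adjusted p from 0.279 to 0.888), where 0.152% of 16427 genes were. At an unadjusted p under 0.05 were 4 of 7 members and 8.47% of all genes. Pearson's r was between 0.156 and 0.581 and rho between 0.0541 and 0.313 (permutation p from 0.0124 to 0.530 for r and from 0.188 to 0.825 for rho). Without the female tumour 28 and the male tumour 23 r was between -0.0156 and 0.237, so the value over both mice depended on these 2 tumours. Within mice r was between 0.496 and 0.744 in the female and between -0.354 and 0.611 in the male mouse. With the difference in *Epcam*, r was between -0.128 and 0.0843, rho between -0.244 and 0.101 (permutation p from 0.595 to 0.838 for r and from 0.302 to 0.894 for rho), and 0 of 7 members were called, where 2.03% of genes were. That r was between -0.177 and 0.120 without the female tumours 26 and 19, between -0.217 and 0.159 in the female mouse and between -0.0847 and 0.157 in the male mouse. The slopes on the difference in *Epcam* depended on scaling. Their median was -0.19 (3 of 7 positive), against -0.69 at equal sums and -1.17 with quantile normalization (0 of 7 positive in each). With quantile normalization 2 of 7 members had an unadjusted p under 0.05, as did 2193 of 16427 genes.

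**Figure D4:**
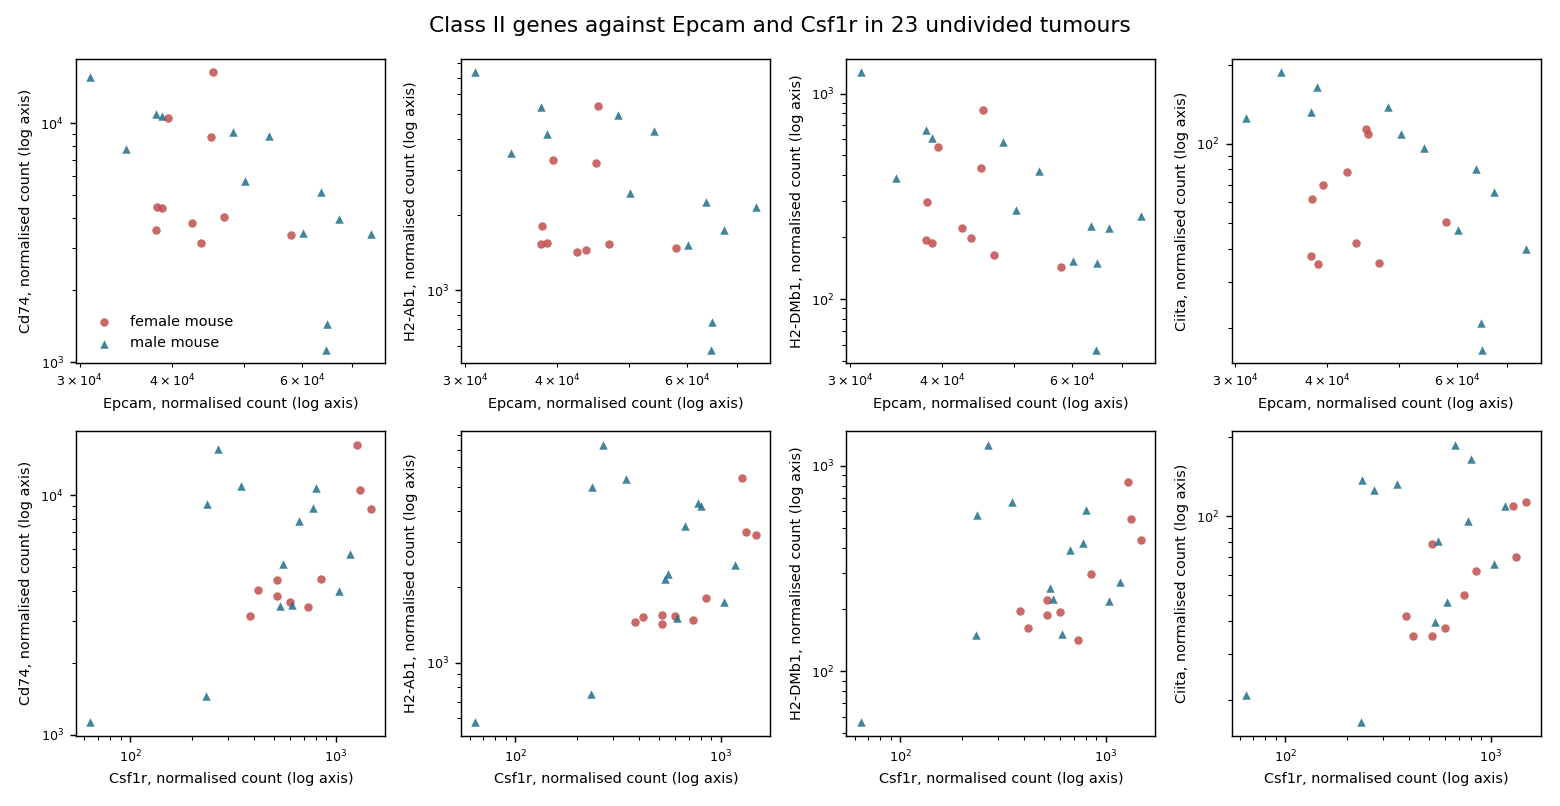
Normalised counts (log axes) of *Cd74*, *H2-Ab1*, *H2-DMb1* and *Ciita* against *Epcam* (top) and *Csf1r* (bottom) in 23 undivided tumours, 10 of the female and 13 of the male mouse, 1 point each. The fall with *Epcam* is seen in the male mouse, where r lies between -0.809 and -0.747 over the 7 genes, and 3 male tumours with 236.3 to 348.2 *Csf1r* have high class II levels.

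The genes most like the 7 members were sought among 16482 genes, by the Pearson r of each gene with the mean of the members over 63 libraries, centred on class and mouse. The 10 most alike were *Fcer1g* (0.873), *Cd52* (0.846), *Tyrobp* (0.830), *C1qa* (0.828), *Mgl2* (0.815), *C1qb* (0.813), *Cyp4f18* (0.808), *Fcgr3* (0.802), *Il2rb* (0.798) and *Rgs10* (0.798). *Fcer1g* and *Tyrobp* encode signalling adaptors of myeloid and NK cell receptors, *C1qa* and *C1qb* chains of complement C1q, *Fcgr3* an Fc receptor, *Mgl2* a lectin of dendritic cells and macrophages, and *Il2rb* a chain of the receptors of interleukins 2 and 15. The median over all ranked genes was -0.0114, 54 genes reached 0.7, and the gene in rank 11 had 0.783. These values are a description over libraries that share tumours, mice and scaling.

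Summed marker levels were set beside the mean of the members in the same way. In undivided tumours r was 0.890 for dendritic cell markers, 0.757 for B cell, 0.757 for myeloid, 0.722 for T and NK cell and 0.668 for group 3 innate lymphoid markers, and -0.535 for epithelial markers. Stromal and endothelial markers were at 0.0535. Taken gene by gene, the order was another: the median r of single markers was 0.702 for myeloid, 0.634 for T and NK cell, 0.475 for B cell and 0.466 for dendritic cell markers. In the female mouse the myeloid markers were highest (0.958), and in the male mouse the dendritic cell markers (0.904, myeloid markers 0.680). In clone differences the dendritic cell markers were at 0.797 and the T and NK cell markers at 0.776. The sums rest on few transcripts. Of the 10 dendritic cell markers 6 were listed at 0 in some library, *Xcr1*, *Clec9a*, *Batf3*, *Cd209a*, *Clec10a* and *Siglech*. The summed 10 ranged from 133.0 to 521.7 normalised counts in undivided tumours, from 92.88 to 442.7 in major and from 117.6 to 375.3 in minor clones. Only 4 of the 10 passed the filter on low values, *Flt3*, *Zbtb46*, *Ccr7* and *Itgae*. In undivided tumours against minor clones these differed by -0.20, -0.13, 0.14 and 0.56. Which of the markers carried the r of the sum was not tested. Of 7 B cell markers 6 were listed at 0 in some library, among them *Ms4a1* and *Cd79a*, and their sum ranged from 29.20 to 394.0 in undivided tumours. None of the 18 myeloid markers was at 0 in any library.

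Genes that act upstream of the members were described in the same way. The summed class II promoter factors had r = -0.121 with the members across undivided tumours and the summed interferon gamma axis -0.0717 (0.429 in the female and -0.254 in the male mouse). The interferon gamma response genes had 0.729 (0.892 and 0.670), with *Iigp1* at 0.726, *B2m* at 0.715 and *Psmb8* at 0.708 and *Icam1* at -0.0692. *Rfx5* had 0.214, and *Irf1* 0.333. *Ifng* itself was listed at 0 in some library and did not pass the filter on low values.

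**Figure D5:**
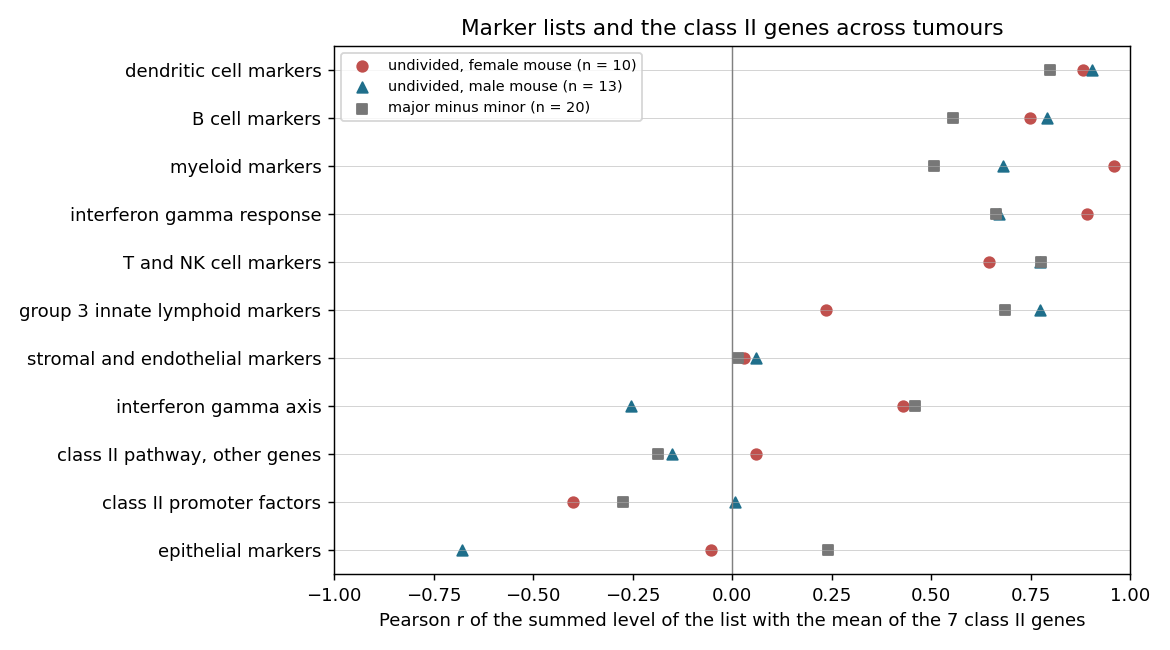
Pearson r of the summed level of each of 11 gene lists with the mean of the 7 class II genes, in undivided tumours of the female (n = 10) and the male mouse (n = 13) and in the clone differences of 20 tumours. The summed dendritic cell markers, of which 4 of 10 passed the filter on low values, lie between 0.797 and 0.904 in all 3 sets. Epithelial markers run from -0.679 in the male mouse to 0.24 in clone differences.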

How the data were processed

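RNA of small intestinal tumours kept in RNAlater was extracted with the RNeasy Plus Mini kit and sequenced from both ends (Illumina Stranded mRNA). The authors trimmed the reads (Trimmomatic 0.39), checked them (FastQC 0.11.9, STAR 2.7.7a, Picard 2.27.3) and estimated counts per gene with Salmon 1.9.0 on GRCm39 (versions from the submitters' processing notes). What the authors deposited is a signal for each gene, namely these estimates after scaling between libraries, here called normalised counts. They are not whole, the reads behind them are unknown, and no counting interval can be given. Library sums were 27100000 to 37600000 in major clones, 26100000 to 33100000 in minor clones and 26600000 to 45900000 in undivided tumours, of which *Rn18s* took a median of 1.24%, 6.19% and 3.11%.

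Tests took genes averaging 10 or more across the libraries of a comparison, on log2(value + 1), which understates changes of low genes, and used limma 3.58.1 (eBayes with trend, R 4.3.3) and Benjamini-Hochberg adjustment over all genes at 0.05. Clones were compared within tumours (tumour as block), and other fits had mouse as a covariate. Major and minor follow the study's assignment, and tumours were paired by the number in the labels (correlation of the clones' deviations from their class means, median 0.265, from 0.0282 to 0.62, over 0.1 in 17 of 20). Permutation tests were two-sided (Python 3.11.15, scipy 1.17.1, numpy 2.4.6, pandas 2.3.3). Figures used matplotlib 3.10.9. The code was tested on simulated data. The members and the 11 lists, with the tests, were chosen with earlier results of these data known, and 1 listed gene is not reported here. Named were the members, called genes of the lists (at most 4 per list and comparison) and the 10 genes most like the members, and others were chosen after their values were seen. Alternatives covered the pseudocount (0.1, 5), the filter (none, 50), scaling, trend, covariates, each mouse alone, the block and single libraries left out.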

Additional observations from a re-analysis of the deposited data

How the results depend on the processing

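Counts of members called moved with some choices. Between major and minor clones the count rose from 0 to 1 when libraries were brought to equal sums (*Cd74* 0.55, limma adjusted p = 0.0497), and it lay between 0 and 1 when single tumours were left out. At equal sums 1.78% of all genes were called, against 1.14% without that scaling. Against minor clones, undivided tumours gave 3 with *Epcam* as a covariate and 0 to 1 with single libraries left out. Of all genes 4.28% were called with that covariate, against 3.70% without it. For SI20 against SI10 in divided tumours, 1 became 0 in the female mouse alone, 0 in the male mouse alone, 6 with *Csf1r* as a covariate, 0 with undivided and divided tumours together and 0 to 2 with single tumours left out. With *Csf1r* the count rose from 0 to 1 at the same sum, 3 with mouse and segment as covariates and 5 with *Epcam* as a covariate, with 0 to 3 when single tumours were left out. Of all genes 4.07% were called at the same sum, 3.29% with mouse and segment and 4.90% with *Epcam* as covariates, against 3.37% without these changes. With *Epcam* the count of members fell from 7 to 0 in the female mouse alone, where 0 of 16354 genes were called. *Ciita* was lost with quantile normalization (-1.36, limma adjusted p = 0.0784), where 8.87% of all genes were called, against 16.8% without it. Fits with undivided and divided tumours together, the added covariates of the relations to *Epcam* and *Csf1r*, and the tests of differences between mice other than for major against minor clones were chosen after the data were seen.

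Directions reversed only for values that did not pass the threshold or in 1 mouse. Undivided tumours against major clones gave -0.055 for *Ciita* at equal sums, -0.015 for it with mouse and segment as covariates, -0.025 for *H2-DMa* with *Rn18s* as a covariate and, in the female mouse alone, -0.12 for *Cd74*, -0.22 for *H2-DMa*, -0.30 for *H2-DMb1* and -0.15 for *Ciita*. In the female mouse alone the slopes on *Epcam* were 0.0078 for *H2-Eb1*, 0.00088 for *H2-DMa* and 0.34 for *Ciita*. In the male mouse alone the slopes of the clone differences on *Csf1r* were -0.086 for *H2-DMb1* and -0.41 for *Ciita*. The causes were not tested.

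Without the replicate block, 0 members and 0 of all genes were called between major and minor clones, against 188 genes with the block (the unadjusted count of all genes was 2142 without and 3680 with it). Over all genes that count was also 366 with quantile normalization (38.5% higher in major clones, against 58.5%), 292 at the same sum, 89 without trend, 85 without the filter, 42 without female tumour 22, 33 in male and 0 in female tumours alone, and 1 to 3 with a covariate. Scaling to the same sum moved the median of all genes by -0.11 in undivided tumours against minor clones, where the share called higher went from 61.5% to 36.7%, and by 0.11 between segments of undivided tumours. Relative to these shifts the members kept their directions. Depth is unknown, so low genes such as *Ciita* are measured with an error that only the spread between tumours shows.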

Other observations

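Tumours of SI30 were described and not tested, since there were 2, both divided and from the female mouse. *Cd74* had 4003 and 6957 normalised counts in their major clones (tumours 29 and 30) and 4729 and 5026 in their minor clones. *H2-DMb1* had 257.5 and 351.1 in the major and 243.5 and 194.2 in the minor clones. The log2 means of the clones, 4351 and 5913 for *Cd74*, lay below the divided SI10 tumours of the same mouse (6296 to 10410), and the first lay within its SI20 tumours (3057 to 4639).

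Other genes of the class II pathway did not follow the members alike across undivided tumours. *H2-DMb2*, a copy of the H2-DM beta chain, had r = 0.770 with the mean of the members, *Marchf1*, a ubiquitin ligase of class II, 0.761, *Cd86*, a co-stimulatory molecule, 0.708 and *Ctss* 0.609. *Ctsl* was at -0.504, *Cd40* at 0.140 and *Lgmn* at 0.0268. In clone differences *Ctss* was at 0.795 and *H2-DMb2* at 0.248. Of the 15 genes of this list in the table, *H2-Oa*, *H2-Ob*, *H2-Eb2* and *Cd80* were listed at 0 in some library.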
